A study of Mus musculus with 6 samples.

Results

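The 7 connexin genes described here are *Gjb2*, *Gjb6*, *Gja1*, *Gja4*, *Gja5*, *Gjb1* and *Gjb5*. Every array probe annotated with one of these symbols was taken, which gave 11 of the 25697 probes on the array, where 18138 gene symbols are named. *Gjb2* and *Gja5* have 3 probes each and the other 5 genes have 1 each. Total RNA of cochlear tissue from 3 WT mice and 3 *Cmah*-null mice was measured on Illumina MouseRef-8 v2 BeadChips, 1 array per sample. All 6 samples were 12 months old and C57BL/6 in the sample records, which the study's methods give as C57BL/6J, and the null group carried the *Cmah* tm1Ykoz knockout allele, which removes the enzyme that makes the sialic acid Neu5Gc. The allele is present in every cell type of the animal, so the comparison is of whole tissue without CMAH at 1 age. Sex is not given in the sources used here.

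Connexins are the membrane proteins of gap junctions. Connexin subunits assemble into a hemichannel, and hemichannels of neighbouring cells dock into a channel through which ions, second messengers and small metabolites pass. In the cochlea, supporting cells of the organ of Corti form an epithelial gap junction network, and fibrocytes of the spiral ligament with cells of the stria vascularis form a connective tissue network. Both are built mainly of Cx26 (*Gjb2*) and Cx30 (*Gjb6*), and the genes of these proteins are known for inherited deafness. Cx43 (*Gja1*) is a connexin of many tissues, Cx37 (*Gja4*) and Cx40 (*Gja5*) are connexins of vessel walls, Cx32 (*Gjb1*) is a connexin of myelinating Schwann cells and Cx31.1 (*Gjb5*) belongs to stratified epithelia.

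The 3 *Gjb2* probes read different stretches of 1 transcript. They start at positions 2164, 1945 and 489 of the RefSeq transcript by the array annotation, which places them on the minus strand at chr14:57717592-57717641, chr14:57717811-57717860 and chr14:57719267-57719316 in band 14qC3, with no genome build named there. The first 30 of the 50 bases of each *Gjb2* probe, and of the single *Gjb6* and *Gja1* probes, are shown because the main comparison rests on them, with no base capitalised.
Gjb2, ILMN_2999627: tcctacaagatgacagtcaacaaatccaac
Gjb2, ILMN_1227148: gtggttttcagagaaccaatgaaacttcta
Gjb2, ILMN_2604713: gccagccctcctggtagctatgcatgtggc
Gjb6, ILMN_1250356: gagcctttccacctatggtgaacagtgcag
Gja1, ILMN_1244291: gtagacctagcccatccaatcaatgtgctc

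Signals are log2 of the average bead signal after quantile normalization, and detection means a detection p below 0.05 on that array. Between 13873 and 15223 probes were detected per array, and 12410 on all 6. *Cmah*-null replicates 1 and 2 lay closer together than any other pair of arrays: the SD of their log2 differences over all probes was 0.126, against 0.307 to 0.636 for the other pairs. *Cmah*-null replicate 3 stood apart, with 18.9% of the probes detected on all arrays more than 1 log2 unit from the mean of the other *Cmah*-null arrays. The single *Cmah* probe read 7.27, 7.28 and 7.87 in WT and 7.95, 7.98 and 7.27 in *Cmah*-null arrays (log2), was detected on 1 WT and 2 *Cmah*-null arrays and did not separate the genotypes. Whether that probe lies in the deleted stretch is not given in the sources used here, so it does not check the labels.

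No connexin probe passed a rule of a 1.5-fold change with an unadjusted p under 0.05 in the limma comparison of *Cmah*-null with WT. The study used the same 2 thresholds without saying whether its p was adjusted, so its counts can differ from those here. The limma rule called 0 of the 11 probes, against 697 of all 25697 probes, or 2.71%. At an unadjusted p under 0.05 alone the count was 0 of 11, against 8.56% of all probes, and at 1.5-fold alone it was 0 of 11, against 5.95%. No probe of the whole array reached an adjusted p under 0.05 with limma (0.0%), although 2199 had an unadjusted p under 0.05. The arrays of the 2 genotypes did not overlap for 1 of the 11 connexin probes, against 16.4% of all probes, and that probe of *Gja5* was detected on no array. The median log2 difference, *Cmah*-null minus WT, was 0.094 over the fitted values of the 11 connexin probes, 2 of them not above background in at least 1 genotype, and 0.00195 over all probes. Of the 7 connexin probes detected on all 6 arrays, 5 had a higher and 2 a lower mean in *Cmah*-null arrays, and their median absolute difference was 0.187 log2, against 0.225 for all probes detected on all 6 arrays. In bulk RNA of this kind, fewer cells of a type and less RNA per cell cannot be told apart.

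**Figure D1:**
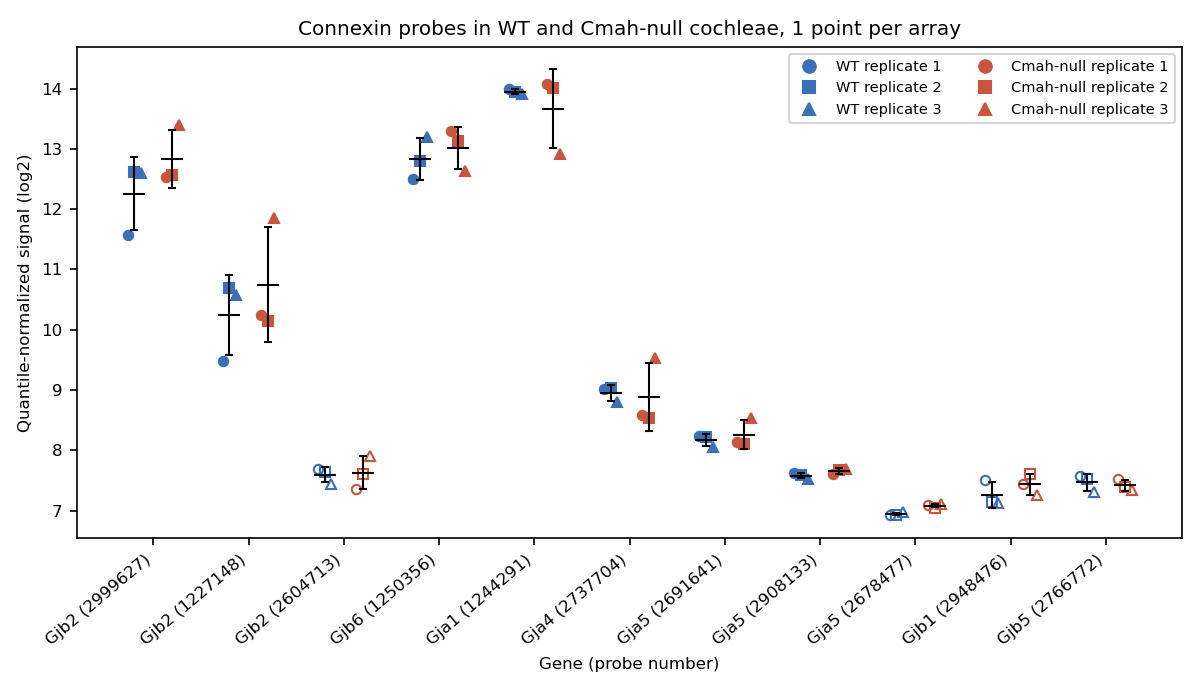
Quantile-normalized log2 signal (vertical axis) of each connexin probe (horizontal axis, gene and probe number) on the 3 WT arrays (blue) and the 3 *Cmah*-null arrays (red). Symbols mark the replicate, horizontal bars the mean and error bars the SD (n = 3), and open symbols a probe not detected on all 6 arrays. *Cmah*-null replicate 3 (red triangle) is the highest array for *Gjb2* and *Gja4* and the lowest for *Gja1*. Heights of different probes are not comparable with each other.

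*Gjb2* was the connexin with the largest difference in mean. Its brightest probe, ILMN_2999627, read 11.57, 12.61 and 12.60 in WT replicates 1 to 3 and 12.54, 12.56 and 13.39 in *Cmah*-null replicates 1 to 3 (log2). WT replicate 1 was the lowest array and *Cmah*-null replicate 3 the highest, while the other 4 arrays, 2 of each genotype, lay within 0.07 log2 of each other. The means were 12.26 ± 0.59 in WT and 12.83 ± 0.48 in *Cmah*-null (SD, n = 3 arrays each). The difference of 0.57 log2 (SE 0.37, 95% interval -0.35 to 1.49) was 1.48-fold, and limma gave an adjusted p of 0.708. Bead noise was small beside this spread: the standard error of the bead mean within an array was 0.035 to 0.0693 on the log2 scale.

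A second *Gjb2* probe, ILMN_1227148, followed the same order of extremes. WT arrays read 9.48, 10.69 and 10.57 and *Cmah*-null arrays 10.24, 10.15 and 11.85. Again WT replicate 1 was lowest and *Cmah*-null replicate 3 highest, and here WT replicates 2 and 3 lay above *Cmah*-null replicates 1 and 2. The difference was 0.50 log2 (SE 0.56, adjusted p = 0.824 with limma). The third probe, ILMN_2604713, was detected on 4 arrays, 2 of each genotype, and read 7.69, 7.64 and 7.45 in WT and 7.36, 7.61 and 7.91 in *Cmah*-null arrays, close to background. Its difference was 0.04 log2 (SE 0.16). The *Gjb2* comparisons that follow use the bright pair.

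The *Gjb2* difference rested on single arrays at both ends. Without WT replicate 1 the brightest probe differed by 0.23 log2, and without *Cmah*-null replicate 3 by 0.29 log2 (SE 0.34, adjusted p = 0.754 with limma). The second probe fell to 0.12 without WT replicate 1 and to -0.05 without *Cmah*-null replicate 3.

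The number of beads per probe split the arrays into 2 sets that each held both genotypes. WT replicate 1 and *Cmah*-null replicates 1 and 2 had medians of 32 to 34 beads, and the other 3 arrays 38 or 39. *Gjb2* was higher in *Cmah*-null within each set, by 0.98 log2 (*Cmah*-null replicates 1 and 2 against WT replicate 1) and by 0.78 (*Cmah*-null replicate 3 against WT replicates 2 and 3) for the brightest probe, and by 0.72 and 1.22 for the second. With the bead set as a block, the brightest probe differed by 0.88 log2 (SE 0.08, limma adjusted p = 0.0896) and the second by 0.97 (SE 0.14, limma adjusted p = 0.104). Both *Gjb2* probes, 2 of 11 connexin probes, then passed the 1.5-fold rule, against 6.72% of all probes under the same block. The lowest array for both probes, WT replicate 1, is the only WT array of the low set. The highest, *Cmah*-null replicate 3, is the only *Cmah*-null array of the high set. The differences within the sets thus rest on the same single arrays as before and are not independent support. *Cmah*-null replicates 1 and 2, the closest pair of arrays, make up the whole *Cmah*-null side of the low set, against 1 WT array. Whether they come from separate mice is not given in the labels, so the small SE may not measure the spread between mice. With these arrays averaged to 1 sample and no bead block, the difference was 0.71 log2 for the brightest probe and 0.78 for the second, and neither was called. No record says what the bead sets stand for, and they were seen in the files, not in the labels.

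Unnormalized signals of *Gjb2* separated the genotypes. The average bead signal of the brightest probe (linear intensity units) was 3215, 4837 and 4308 in WT and 8552, 7825 and 9933 in *Cmah*-null. For the second probe it was 764.4, 1304 and 1119 in WT and 1695, 1492 and 3410 in *Cmah*-null. In these units all 3 *Cmah*-null arrays lay above all 3 WT arrays for both probes. Raw signals did not overlap between the genotypes for 3 of 11 connexin probes, the third being a dim *Gja5* probe, against 17.0% of all probes. That share was not counted for bright probes alone. Without the quantile step bright probes in general were higher in *Cmah*-null. After median scaling this held for 83.5% of probes with a mean log2 signal of 12 or more and 86.1% of those between 10 and 12. With the share of bright probes that separate not counted, the raw separation of *Gjb2* was not read as support for the normalized values.

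Scaling each array to its median instead of quantile normalization gave *Gjb2* differences of 1.08 log2 (limma adjusted p = 0.0996) and 0.96 (limma adjusted p = 0.315), and *Gjb6* a difference of 0.71 (limma adjusted p = 0.341). These 3 of 11 connexin probes then passed the 1.5-fold rule, against 9.68% of all probes. Median scaling also moved the whole array: the median difference of probes detected on all 6 arrays was 0.30 log2 in place of 0.03. Among the 1344 probes with a mean log2 signal of 12 or more, it was 0.47 in place of -0.03, and 83.5% of them lay above 0. Over the 3636 probes with a mean log2 signal between 10 and 12, where the second *Gjb2* probe lies, the shift was 0.46. Relative to these shifts the median-scaled values restate the quantile-normalized differences and give no further support.

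**Figure D2:**
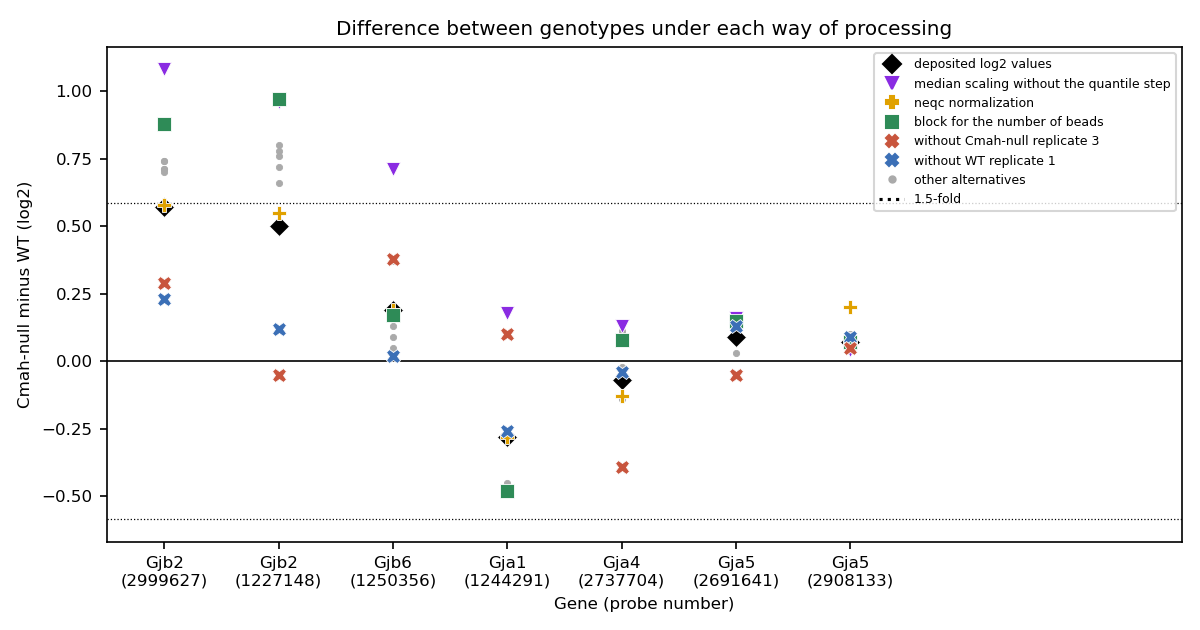
Difference between *Cmah*-null and WT (vertical axis, log2) for the 7 connexin probes detected on all 6 arrays (horizontal axis, gene and probe number), 1 symbol per way of processing. *Gjb2* ranged from 0.23 to 1.08 for its brightest probe. The second *Gjb2* probe, *Gja1*, *Gja4* and the brightest *Gja5* probe lay on both sides of 0. Dotted lines mark 1.5-fold.

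*Gjb6*, the partner of *Gjb2* in cochlear gap junctions, was bright on every array and differed little. Its probe, on the minus strand at chr14:57742163-57742212 of the array annotation, read 12.50, 12.80 and 13.20 in WT and 13.29, 13.13 and 12.63 in *Cmah*-null arrays (log2). The genotypes overlapped, and *Cmah*-null replicate 3, the highest array for *Gjb2*, was the second lowest for *Gjb6*. Means were 12.83 ± 0.35 and 13.02 ± 0.35 (SD, n = 3 arrays each). The difference of 0.19 log2 (SE 0.24, 95% interval -0.42 to 0.79) had a limma adjusted p of 0.853. It was 0.02 without WT replicate 1 and 0.38 without *Cmah*-null replicate 3. Between bead sets it changed sign, with 0.71 in the low set and -0.37 in the high set.

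The genes of this pair are neighbours on chromosome 14, in the order *Gja3*, *Gjb2* and *Gjb6*, with no other coding gene between them in the RefSeq annotation. Their RefSeq promoter windows of 300 bases around the annotated start on GRCm38.p6, both on the minus strand, are shown because the genes are adjacent. Their profiles over the arrays differed mainly in *Cmah*-null replicate 3, and the permutation test below did not separate their genotype differences. Capitals mark GC boxes, the letters GGGCGG on either strand.
Gjb2, chr14:57104653-57104952: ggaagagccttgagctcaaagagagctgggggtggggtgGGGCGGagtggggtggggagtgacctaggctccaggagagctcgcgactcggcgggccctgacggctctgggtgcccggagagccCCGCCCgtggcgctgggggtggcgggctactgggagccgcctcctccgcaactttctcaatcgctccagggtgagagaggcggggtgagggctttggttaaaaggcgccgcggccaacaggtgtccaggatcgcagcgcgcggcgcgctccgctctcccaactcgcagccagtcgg
Gjb6, chr14:57133562-57133861: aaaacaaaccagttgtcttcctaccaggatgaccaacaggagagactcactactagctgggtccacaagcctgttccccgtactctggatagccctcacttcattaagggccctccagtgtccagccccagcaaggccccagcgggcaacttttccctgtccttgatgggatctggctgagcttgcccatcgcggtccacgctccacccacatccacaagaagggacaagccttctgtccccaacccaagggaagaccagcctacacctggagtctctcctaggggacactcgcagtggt

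The *Gjb2* window was 70.0% G or C with 27 CpG pairs and 2 GC boxes, and the *Gjb6* window 57.3% with 6 CpG pairs and no GC box. Over 32851 RefSeq promoter windows of the same 300 bases, the median was 52.7% and 7 CpG pairs, and 35.7% held at least 1 GC box. Neither window held the letters TATAAA or CCAAT on either strand, which 13.6% and 37.4% of all windows did. These matches describe letters only.

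*Gja1* varied little in WT and was low on 1 *Cmah*-null array. Its probe, at chr10:56110147-56110196 of the array annotation on the plus strand, read 13.99, 13.94 and 13.91 in WT and 14.08, 14.01 and 12.92 in *Cmah*-null arrays. The other 5 arrays lay within 0.17 log2, and *Cmah*-null replicate 3 lay 0.99 below the nearest of them. The WT mean was 13.95 ± 0.04 and the *Cmah*-null mean 13.67 ± 0.65 (SD, n = 3 arrays each). The difference of -0.28 log2 (SE 0.32, 95% interval -1.07 to 0.51, limma adjusted p = 0.828) became 0.10 (SE 0.08) without *Cmah*-null replicate 3, and it was 0.18 with median scaling. Bead error within an array was 0.0313 to 0.0705 log2 for this probe.

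The brightest probes of *Gjb2*, *Gjb6* and *Gja1* were compared within arrays, 3 pairs in all. Relative to the WT mean, *Gjb2* minus *Gjb6* was -0.35, 0.38 and -0.03 log2 in WT and -0.18, 0.00 and 1.33 in *Cmah*-null arrays. *Gjb2* minus *Gja1* was -0.73, 0.35 and 0.38 in WT and 0.15, 0.24 and 2.16 in *Cmah*-null. *Gjb6* minus *Gja1* was -0.38, -0.03 and 0.41 in WT and 0.33, 0.24 and 0.83 in *Cmah*-null. *Cmah*-null replicate 3 had the highest value of all 6 arrays in each pair, and the other 5 arrays overlapped. The genotype differences of 0.38, 0.85 and 0.47 log2 had p = 0.6, 0.6 and 0.3 in a two-sided exact permutation test, each 0.6 after adjustment over the 3 pairs, where the smallest p that 3 against 3 arrays allow is 0.1. Without *Cmah*-null replicate 3, *Gjb2* minus *Gjb6* was -0.09, *Gjb2* minus *Gja1* was 0.20 and *Gjb6* minus *Gja1* was 0.29.

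*Gja4* and *Gja5*, the vascular connexins, were dimmer and detected on all 6 arrays by 1 and 2 probes. *Gja4*, probed at chr4:126988806-126988855 of the array annotation on the minus strand, read 9.01, 9.04 and 8.80 in WT and 8.59, 8.54 and 9.53 in *Cmah*-null arrays. All WT values lay between those of *Cmah*-null replicates 1 and 2 on the low side and replicate 3 on the high side. The difference was -0.07 log2 (SE 0.28, 95% interval -0.76 to 0.63, limma adjusted p = 0.962). Without *Cmah*-null replicate 3 it was -0.39 (SE 0.10, limma adjusted p = 0.241), with an unadjusted p of 0.0105 in limma, the lowest over its alternatives. Fits with the bead block and with median scaling gave 0.08 and 0.13, so the sign was not settled.

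The summed signal of endothelial markers was low and high on the same *Cmah*-null arrays as *Gja4*, and the single markers did not move as one. Over 14 endothelial genes, all 14 detected on every array, the summed linear signal was 21434, 25679 and 25869 in WT and 16709, 17730 and 35338 in *Cmah*-null arrays. Within WT the sum was highest in replicate 3, where *Gja4* was lowest. For 8 of the 14 genes *Cmah*-null replicate 3 was the highest array, and for 2 it was the lowest. *Emcn*, named after its values were seen as one of the latter, read 10.89, 11.54 and 11.56 in WT and 10.99, 10.99 and 10.06 in *Cmah*-null. Of the 14 genes, 6 had a higher and 8 a lower mean in *Cmah*-null, with a median difference of -0.10 log2 against 0.00195 over all probes. Those called were *Egfl7* and *Cldn5*, an endothelial secreted factor and an endothelial tight junction claudin, both lower, with differences of -0.79 (SE 0.21) and -0.73 (SE 0.23) log2. Over all probes 2.71% were called. The junction cadherin *Cdh5* read 9.30, 8.65 and 8.55 in WT and 8.55, 8.57 and 9.50 in *Cmah*-null. The part of vessel content in the *Gja4* values was not tested.

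*Gja5* was measured by 2 probes near the end of its transcript, at positions 2783 and 2722, and by 1 near its start, at position 6. The brightest, ILMN_2691641, read 8.24, 8.22 and 8.05 in WT and 8.14, 8.10 and 8.54 in *Cmah*-null, a difference of 0.09 log2 (SE 0.14, limma adjusted p = 0.873). *Cmah*-null replicate 3 was again the highest array and the others overlapped. ILMN_2908133 read 7.62, 7.59 and 7.53 in WT and 7.60, 7.67 and 7.69 in *Cmah*-null, with detection p between 0.018 and 0.031 and a difference of 0.07 (SE 0.07). ILMN_2678477, at the start of the transcript, was not above background on any array, so only a fitted value exists, which enters the counts and is not read as a difference.

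*Gjb1* and *Gjb5* lay at the edge of detection. *Gjb1*, on chromosome X, read 7.50, 7.14 and 7.13 in WT and 7.45, 7.60 and 7.26 in *Cmah*-null, and was detected on 1 array of each genotype. Its difference was 0.18 log2 (SE 0.14, limma adjusted p = 0.753). Of 9 Schwann cell myelin genes, all 9 detected on every array, 1 was higher and 8 lower in *Cmah*-null. Only the myelin protein gene *Mal* was called (-0.67, SE 0.24), against 2.71% of all probes. The summed signal of the 9 myelin genes was 49869 to 106453 in WT and 50862 to 52692 in *Cmah*-null. Myelin transcripts were thus bright on all arrays on which *Gjb1* was near background.

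*Gjb5* read 7.57, 7.52 and 7.31 in WT and 7.52, 7.40 and 7.34 in *Cmah*-null arrays. It was detected on 2 WT arrays and not above background on any *Cmah*-null array, where only a bound could be had, and this bound lay under 1-fold. Its fitted value enters the counts and is not read as a fold.

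**Figure D3:**
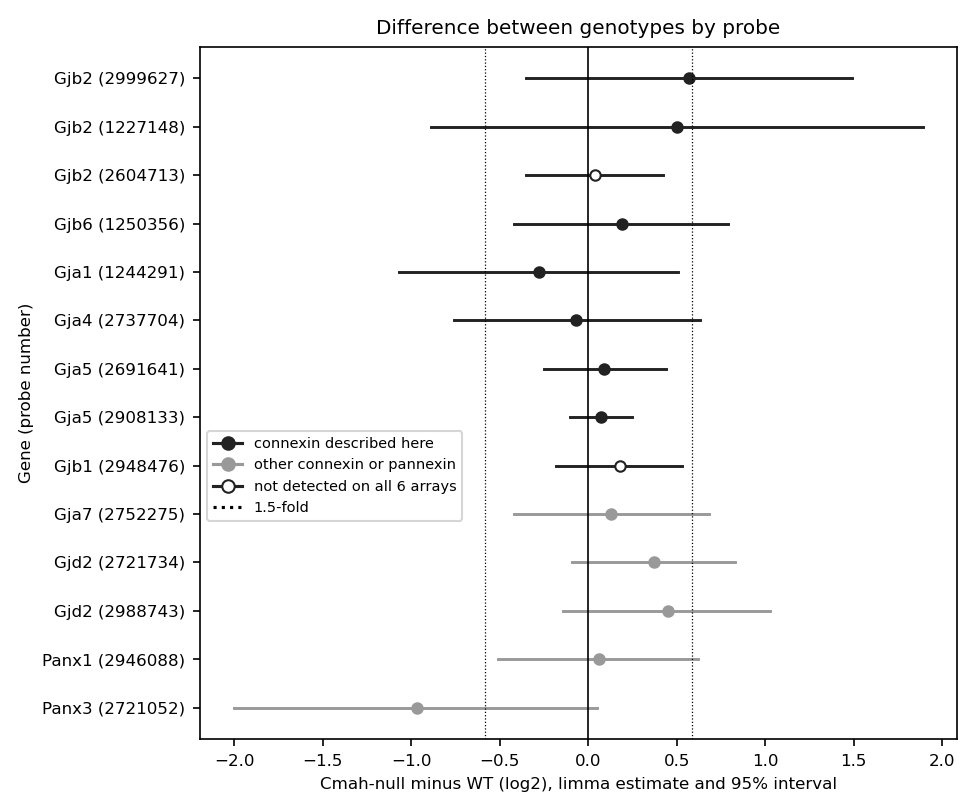
Difference between *Cmah*-null and WT (horizontal axis, log2, limma estimate with its 95% interval) for the 9 connexin probes detected on at least 1 array of each genotype (black) and 5 probes of *Gja7*, *Gjd2*, *Panx1* and *Panx3* detected on all 6 arrays (grey), by gene and probe number. Open points mark probes not detected on all 6 arrays, dotted lines mark 1.5-fold, and all 14 intervals include 0.

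No probe in the rest of the family was called either. Of 20 further connexin and pannexin symbols, 15 genes with 18 probes were on the array, and 7 of these probes were detected on all 6 arrays. The 1.5-fold rule with its p called 0 of 18, against 2.71% of all probes. At 1.5-fold alone the count was 1 of 18, against 5.95%, and at an unadjusted limma p under 0.05 alone 1 of 18, against 8.56%. The genotypes did not overlap for 3 of 18, against 16.4%. *Panx3*, a pannexin of bone and skin, had the largest difference: it read 9.84, 10.27 and 10.52 in WT and 9.78, 9.59 and 8.33 in *Cmah*-null. All *Cmah*-null arrays lay below all WT arrays, and the difference of means was -0.97 log2 (SE 0.42, limma adjusted p = 0.6). *Gjd2*, the neuronal connexin, differed by 0.45 (SE 0.24) and 0.37 (SE 0.19) at its brighter probes. *Gja7*, now *Gjc1*, differed by 0.13 and *Panx1* by 0.06. *Gja6* and *Gja3* were detected on 4 and 1 arrays, and *Gja10*, *Gjd3*, *Gjd4*, *Gje1* (now *Gjc3*) and *Panx2* on none.

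Of 18 genes for connexin partners and trafficking, 9 were higher and 9 lower in *Cmah*-null, with a median difference of 0.03 log2. *Cav1*, the membrane scaffold of caveolae, was the one called, against 2.71% of all probes. It read 13.24, 13.10 and 13.43 in WT and 12.62, 12.71 and 11.94 in *Cmah*-null, with all *Cmah*-null arrays lower, and fell by 0.83 log2 (SE 0.23, limma adjusted p = 0.463).

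The labelled tissue was checked against cochlear markers. *Coch* and *Otos*, secreted proteins of spiral ligament fibrocytes, were detected on all arrays, at 10.40, 12.39 and 12.48 and at 9.98, 10.69 and 11.40 in WT, and at 11.29, 11.37 and 10.68 and at 10.62, 10.69 and 8.82 in *Cmah*-null. Both were lowest or second lowest in WT replicate 1 and *Cmah*-null replicate 3. The hair cell myosin *Myo7a* was detected on all 6 arrays, the hair cell factor *Pou4f3* on none, and *Kcnq1*, the potassium channel of stria marginal cells, on 2. In their lists, 6 of 13 hair cell genes and 9 of 12 stria genes were detected on all 6 arrays. Of the hair cell genes 4, and of the stria genes 1, were detected on none. Of 15 supporting cell genes 10 were higher and 5 lower, with *Prox1* (0.73, SE 0.19) and *Bmp4* (0.80, SE 0.31) called higher and *Cdkn1b* (-1.09, SE 0.32) lower. Of 10 spiral ligament genes 2 were higher and 8 lower, with none called and a summed signal of 22369 to 34023 in WT and 15434 to 28473 in *Cmah*-null. Of 12 stria genes 8 were higher and 4 lower, with *Atp1b2*, a sodium pump subunit, called higher (1.16). Over all probes 2.71% were called.

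Markers of tissues beside the cochlear duct varied over the same arrays. The epidermal keratin *Krt14* was bright on all arrays, and 12 of 13 epidermal genes were higher in *Cmah*-null, with *Dsp*, *Trp63* and *Sfn* called (1.24, 1.08 and 0.70 log2). Their summed signal was 35017, 50254 and 135998 in WT and 118676, 116527 and 119284 in *Cmah*-null. It was lowest in WT replicate 1, as *Gjb2* was, and also low in WT replicate 2, where *Gjb2* was not. Some other lists, such as supporting cell and spiral ligament genes, also had their lowest WT sum in replicate 1. *Slc1a3* makes up most of the supporting cell sums, which were close in WT replicates 1 and 2 (21992 and 22392). *Slc12a2* makes up most of the spiral ligament sums. Other lists, such as Schwann cell myelin genes, had their highest WT sum in replicate 1. All 6 leptomeningeal genes were higher in *Cmah*-null, by a median of 0.51 log2, with the transporter *Slc22a6* called (1.04, SE 0.24). Their sums of 16070 to 17803 in WT did not overlap those of 23262 to 25170 in *Cmah*-null, but *Ptgds*, the brightest, makes up most of each sum. Of the single genes *Ptgds*, *Aldh1a2*, *Slc6a13* and *Slc22a6* did not overlap between the genotypes, and *Foxc1* and *Foxd1* did. Over the whole array 16.4% of probes did not overlap and 2.71% were called. All 5 brown fat genes were lower, with 4 called and *Ucp1*, the thermogenic uncoupling protein, at -2.11 log2. The part of these tissues in the connexin values was not tested.

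**Figure D4:**
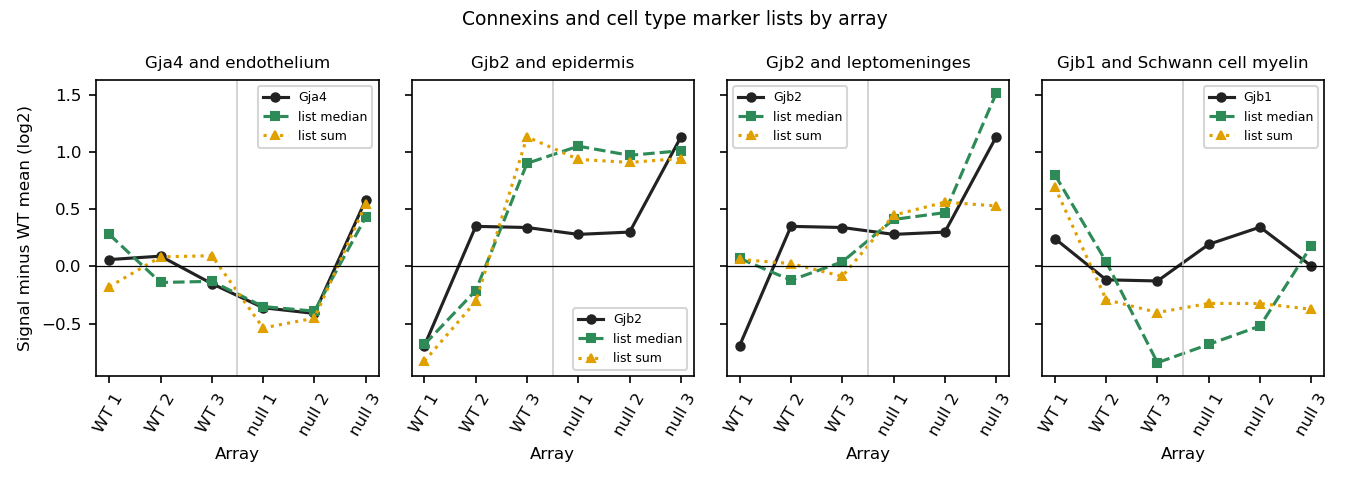
Signal minus the WT mean (vertical axis, log2) on each array (horizontal axis) for a connexin (black), the median of a marker list (green) and the summed signal of that list (yellow). *Gja4* and the endothelial sum are both low in *Cmah*-null replicates 1 and 2 and high in replicate 3. *Gjb2* shares its low WT replicate 1 with the epidermal list and with some lists not drawn. In WT replicate 2 the epidermal sum is low too and *Gjb2* is not. *Cmah*-null replicate 3 is the highest array in the leptomeningeal median but not in its sum.

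Genes most like each bright connexin over the 6 arrays were found by the root-mean-square difference of log2 values centred on each probe's mean, among probes detected on all 6 arrays. For *Gjb2* these were *Sh3bp2*, *Ptgis* and *Comp*, an adaptor protein, prostacyclin synthase and a cartilage matrix protein, at 0.0842, 0.0876 and 0.112 log2. *Sh3bp2* read 8.92, 9.77 and 9.81 in WT and 9.87, 9.82 and 10.50 in *Cmah*-null. The second *Gjb2* probe was at 0.282 and the median probe at 0.565. For *Gjb6* they were the organic cation transporter *Slc22a4*, *9530077C05Rik* and *Fnbp1l*, at 0.0504 to 0.0646 with a median probe at 0.416. *Gja1* was followed by *4933411K20Rik*, *Fbxl4* and *Gngt2*, at 0.0312 to 0.0425 with a median probe at 0.484, and each of these also dropped in *Cmah*-null replicate 3 alone. With 6 arrays, of which 1 stood apart, many probes share such a profile.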

How the data were processed

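RNA of 3 WT and 3 *Cmah*-null samples was hybridized to 1 array each. The authors deposited the average bead signal of each probe as linear intensity without background correction, with a standard error of the bead signal, a number of beads and a detection p-value. Their second deposited table holds log2 values, which were checked to equal the quantile-normalized log2 intensities (largest difference 5e-07). The column names there read "old" for the samples recorded as *Cmah*-null, which were matched by number. Its columns of fold changes and test statistics were not used.

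The log2 values of all 25697 probes were fitted by lmFit and eBayes of limma (3.58.1, under R 4.3.3) and tested two-sided, with p adjusted by Benjamini-Hochberg over all probes. Members, gene lists and tests were chosen with earlier results of these data known. Genes named are the connexins and pannexins (some are not reported here), the called members of each list (at most 4), chosen defining markers, and the 3 probes most like each bright connexin. List levels use the brightest probe per gene. The methods give 3 mice per genotype, but no label ties an array to a mouse, so p-values measure the spread between these samples, and 6 arrays limit the precision. Alternatives were neqc normalization (offset 16), median scaling, a detection filter (14883 probes on at least 3 arrays), blocks for replicate and bead number, a trended robust prior, averaging *Cmah*-null replicates 1 and 2, and leaving out each array. Fits were tested on simulated data. Promoters came from RefSeq (GRCm38.p6), where all 7 genes matched. Plots used Python 3.11.15 and matplotlib 3.10.9.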

Additional observations from a re-analysis of the deposited data

How the results depend on the processing

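The count of connexin probes at 1.5-fold with an unadjusted p under 0.05 was 0 in the main comparison and under every alternative except median scaling, where it was 3, and the block for the number of beads, where it was 2. Over all probes the main count was 697. It was 2488 after median scaling, 1728 under the bead block, 1482 after neqc and 811 under the replicate block, and it lay between 429 (without WT replicate 2) and 1037 when 1 array was left out. Median scaling turned the log2 differences of *Gja1* to 0.18, *Gja4* to 0.13 and the dim *Gjb2* probe to -0.06, and *Gja4* was 0.08 with the bead block and 0.09 with *Cmah*-null replicates 1 and 2 averaged. With 1 array left out, the differences ranged from -0.05 to 0.80 for the second *Gjb2* probe, -0.11 to 0.17 for the dim *Gjb2* probe, -0.49 to 0.10 for *Gja1*, -0.39 to 0.11 for *Gja4*, -0.05 to 0.17 for the brightest *Gja5* probe, -0.13 to 0.00022 for the fitted value of *Gjb5*, which was not above background in *Cmah*-null, 0.02 to 0.38 for *Gjb6*, 0.23 to 0.74 for the brightest *Gjb2* probe, and -0.09 to 0.67 for *Gjb2* minus *Gjb6*. The cause of these changes was not tested. Same-numbered samples did not deviate together (correlations of 0.022, -0.17 and 0.013 over 12410 probes), so the numbers pair no samples, and with the replicate block the brightest *Gjb2* probe differed by 0.57 (unadjusted limma p = 0.0787) and no connexin probe was called. A block for the slide was not run, since the file headers used here name no slide. Dim probes (*Gjb1*, *Gjb5*, ILMN_2604713 of *Gjb2*, and ILMN_2908133 and ILMN_2678477 of *Gja5*) lie near the negative controls, where a difference is understated.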
